A study of Rattus norvegicus with 4 samples.

Results

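The genes examined here were 9 genes of the myelin sheath: Mbp, Mag, Mal, Pllp, Cnp, Mog, Mobp, Gpm6a and Gpm6b. They were taken by their gene symbols, not by a threshold on their values, and all 9 were among the 30708 gene symbols for which a value was listed. Poly(A) RNA-Seq was carried out on 2 unmodified, wild-type populations of S16 cells, an immortalized rat Schwann cell line grown in flasks and labelled as myelinating Schwann cells. One population was at passage 9 and was the parent of the edited lines of the study, which were not analysed here, and the other was at passage 39, with no treatment in either. For each population there were 2 libraries, labelled technical replicates of one another and called here the first and the second library after the last number of their titles. The values were RPKM (reads scaled to a gene length of 1 kb and to 1000000 reads in the library), and the totals behind them, recovered from the values, were between 34246093 and 41382234 reads per library. A library of each number thus stood for each passage, and 1 population per passage left no replicate against which a difference between passages could be tested.

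Myelin is the stack of glial membrane that insulates axons. It is made by Schwann cells in peripheral nerves and by oligodendrocytes in the brain and spinal cord. Mbp encodes myelin basic protein, which holds the cytoplasmic faces of the membrane together, and Cnp encodes a cyclic nucleotide phosphodiesterase of the cytoplasm-filled channels of myelin. Mag is an adhesion molecule of the inner membrane that faces the axon. Mal and Pllp (plasmolipin) are small proteins with 4 membrane-spanning segments (the MARVEL family) that sort membrane lipids and proteins. Gpm6a and Gpm6b are membrane glycoproteins of the myelin proteolipid family, and Mog and Mobp are known as myelin proteins of oligodendrocytes.

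Before the values are given, the labels of the libraries need a remark. The 2 libraries of a passage differed from each other far more than libraries of the same number from different passages did. A chi-square of the recovered reads, averaged over genes with at least 20 reads in a pair, came to 64.9 within passage 9 and to 62.2 within passage 39. It came to 1.12 between both first libraries and to 1.36 between both second libraries, where counting noise alone gives 1. The libraries labelled as technical replicates were therefore kept apart here, and each result is given by passage and by library number. Whether the labels, a library batch or a difference between cell populations lies behind this pattern was not tested.

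Upstream sequence is shown for 4 genes that stand for the range of levels reported below: Cnp, the highest, Mag and Mal, which differed between libraries to a small and to a large degree, and Mobp, which was nearly absent. The sequences are the 250 bases before the annotated start of transcription, from RefSeq on build GRCr8, read 5′ to 3′ on the strand of the gene. The capitals mark the pentamers to which SOX10, the main transcription factor of Schwann cells, binds as a monomer (ACAAA or ACACA or ACAAT or ACAAG, on either strand, overlaps included).
Cnp (chr10:86011254-86011503, plus strand): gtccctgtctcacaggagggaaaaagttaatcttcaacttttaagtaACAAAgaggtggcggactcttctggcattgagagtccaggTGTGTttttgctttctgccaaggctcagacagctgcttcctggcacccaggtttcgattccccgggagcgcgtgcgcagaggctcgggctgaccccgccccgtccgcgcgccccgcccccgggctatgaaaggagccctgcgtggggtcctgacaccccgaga
Mag (chr1:95291045-95291294, minus strand): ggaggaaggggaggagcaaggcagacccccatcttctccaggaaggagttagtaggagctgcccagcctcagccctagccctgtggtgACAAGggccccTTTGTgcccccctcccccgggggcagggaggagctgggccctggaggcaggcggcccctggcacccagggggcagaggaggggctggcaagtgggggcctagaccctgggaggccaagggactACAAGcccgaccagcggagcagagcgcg
Mal (chr3:135341424-135341673, minus strand): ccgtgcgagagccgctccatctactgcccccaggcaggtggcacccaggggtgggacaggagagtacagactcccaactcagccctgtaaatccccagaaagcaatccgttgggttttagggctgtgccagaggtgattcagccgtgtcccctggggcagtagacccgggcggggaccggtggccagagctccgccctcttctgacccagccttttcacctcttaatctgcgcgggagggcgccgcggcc
Mobp (chr8:128746982-128747231, plus strand): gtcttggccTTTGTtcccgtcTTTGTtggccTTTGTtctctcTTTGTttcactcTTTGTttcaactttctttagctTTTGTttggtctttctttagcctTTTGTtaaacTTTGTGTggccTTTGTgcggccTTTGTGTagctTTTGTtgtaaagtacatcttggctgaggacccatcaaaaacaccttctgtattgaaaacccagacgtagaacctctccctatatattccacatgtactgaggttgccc

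These pentamers are short and common. At least 1 of them was present in 79.6% of the 33469 upstream windows of the table, with a median of 2 per window. Cnp had 2, Mag had 3, Pllp had 1, and Mal and Gpm6a had none. Mbp, which has 2 windows for 2 start sites, had 0 in one window and 5 in the other. In Mag, ACAAG and TTTGT faced each other head to head with 6 bases between them, starting 162 bases before the start of transcription. A head-to-head pair with at most 10 bases between its parts was found in 4.93% of all windows, and in no other window of these genes. Mobp held 13 pentamers, all of them on the reverse strand, and 0.218% of all windows held as many. The 7 genes with a window were thus unlike in this respect, and a match describes the letters only. The windows lie on a different build from the one the reads were aligned to.

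Cnp was the most abundant of the 9 genes. It was at 280.4 and 210.4 RPKM in the first and second library of passage 9 and at 279.0 and 207.9 RPKM in those of passage 39. Averaged by passage it was at 244 ± 1.34 RPKM (SD, n = 2 passages), and its mean ranked 146 among the 30708 listed genes. Each passage mean held 1 library of each number, so this SD, like those below, leaves out the gap between the libraries. Over the means of the 2 library numbers the SD was 49.9 RPKM. The first libraries were high and the second low, with no overlap, while the passages overlapped.

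Gpm6b followed at 210.8 and 136.8 RPKM in passage 9 and 212.3 and 141.3 RPKM in passage 39, or 175 ± 2.10 RPKM by passage. With a recovered length of 5278 bp it held the most reads of the 9 genes, 140381 over the 4 libraries, against 90112 for Cnp. Its paralog Gpm6a, which is best known from neurons, was at the other end. A single read of Gpm6a was recovered, in the second library of passage 9 (0.00914 RPKM), and the other 3 libraries listed it at 0. For these 3 libraries, 3 reads would have amounted to between 0.0233 and 0.0281 RPKM.

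Mag was at 78.4 and 60.5 RPKM in the libraries of passage 9 and at 78.3 and 60.2 RPKM in those of passage 39. Mbp was at 50.5 and 29.5 RPKM in passage 9 and at 50.9 and 29.7 RPKM in passage 39, which gave 40.2 ± 0.200 RPKM by passage (SD, n = 2). Both genes had the same order of libraries as Cnp, with both first libraries above both second ones. All transcripts of Mbp, the non-myelin Golli forms included, share this 1 value, so that forms of Mbp cannot be told apart.

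The MARVEL pair was split. Mal was at 43.8 and 18.7 RPKM in passage 9 and at 44.4 and 18.1 RPKM in passage 39, or 31.2 ± 0.00138 RPKM by passage. The small SD of Mal arose from averages over libraries that were themselves 25.1 and 26.2 RPKM apart within a passage. Pllp, in contrast, rested on 11 and 9 reads in passage 9 and on 7 and 6 reads in passage 39. This corresponded to 0.180, 0.174, 0.138 and 0.0989 RPKM, and the 95% counting intervals of the 4 libraries all overlapped.

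Of the genes known from oligodendrocytes, Mog was measured and Mobp hardly so. Mog was at 8.43 and 6.86 RPKM in passage 9 and at 9.20 and 7.43 RPKM in passage 39, on 532 to 771 reads per library. Mobp had 1 read in the second library of passage 9 and 2 reads in the second library of passage 39, and was listed at 0 in both first libraries, where 3 reads would have been 0.0123 and 0.0149 RPKM. In the RefSeq table the gene Zfp57 overlaps Mog, and it was listed at a mean of 3.41 RPKM. Since the reads were counted without regard to strand, reads in the shared stretch cannot be assigned to one of them with certainty. Non-coding genes overlap Mbp, Mag, Mal and Gpm6a in that table, but none of them was among the listed symbols.

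Other oligodendrocyte genes were looked up beside Mog. Of 12 markers, Opalin, Olig1, Ermn and Nkx6-2 were listed at 0 in every library, and 3 had a mean of at least 1 RPKM: Pdgfra at 5.35, Nkx2-2 at 4.80 and Olig2 at 1.04 RPKM. The 12 markers summed to between 12.1 and 12.4 RPKM in the 4 libraries. Pdgfra is also on the list of fibroblast markers used below. Myrf, a regulator of myelin genes in oligodendrocytes given below, was not among the 12 and had a mean of 50.8 RPKM. The Schwann cell genes Sox10, Ngfr, Erbb3 and S100b had means of 176, 283, 89.2 and 59.2 RPKM. Of them, Ngfr, Erbb3 and S100b are on the list of 9 immature Schwann cell markers used below. On that list 8 genes had a mean of at least 1 RPKM, and Gap43 was listed at 0 in every library. The Schwann cell genes named here, Gap43 apart, were thus present. Their levels do not, however, tell whether the cells were in the labelled myelinating state. In whole-culture RNA a lower level cannot be told apart from fewer cells that express the gene.

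**Figure D1:**
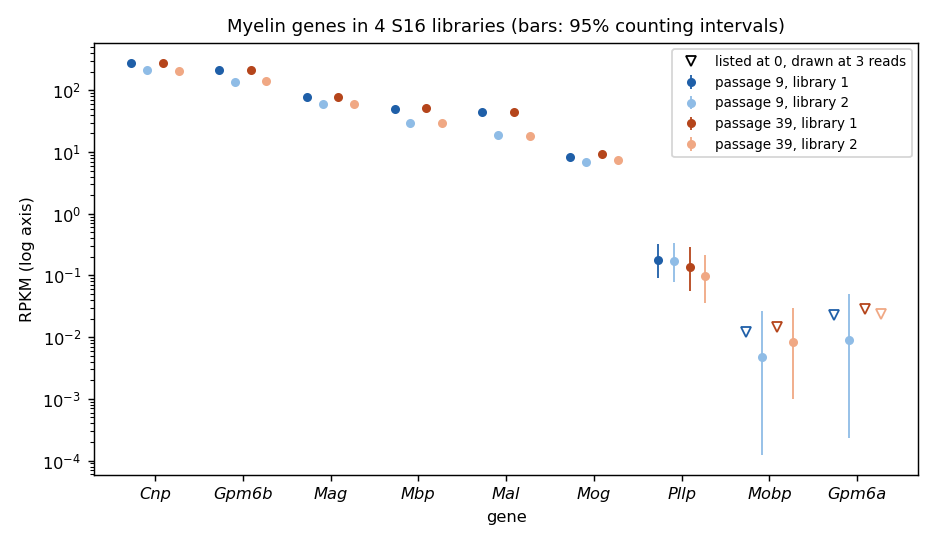
RPKM (vertical log axis) of the 9 myelin genes in the 4 libraries, with 95% exact counting intervals as bars and open triangles for libraries that listed a gene at 0, drawn at the value of 3 reads. 6 genes lie between 6.86 and 280.4 RPKM with the darker first libraries above the lighter second ones, and Pllp, Mobp and Gpm6a lie below 0.2 RPKM.

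The order of the levels was Cnp, Gpm6b, Mag, Mbp, Mal and Mog, then Pllp, and last Mobp and Gpm6a. Within each of the 4 libraries the 95% counting intervals of neighbours in this order were apart, except for Mobp and Gpm6a, which overlapped in 4 of 4 libraries. Across libraries the ranges of Cnp and Gpm6b overlapped, and so did those of Mbp and Mal. The distance between Mbp and Mal in particular depended on the library, with Mbp 1.15-fold above Mal at the lowest and 1.64-fold at the highest. The mean over the passages was at least 1 RPKM for 6 of the 9 genes. Together the 9 genes took between 0.166% and 0.248% of the reads of a library.

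The comparison of passage 39 with passage 9 takes the labels as given. Since same-numbered libraries of the 2 passages were nearly within counting noise of each other, whether it compares different passages or repeat libraries of the same RNA cannot be told apart, and it is no measure of the stability of the line in culture. None of the 6 genes above a mean of 1 RPKM differed by 1.5-fold between the passages on the log2(RPKM + 1) scale. Among all 11025 genes above this minimum, 0.0272% did, so that such a difference was rare in general. The largest difference of the 6 was that of Mog, at 7.65 RPKM in passage 9 and 8.31 RPKM in passage 39, a log2 difference of 0.11. For Cnp, Gpm6b, Mag, Mbp and Mal the log2 difference was between -0.01 and 0.02. The median of all 6 genes was 0.005, against -0.002 for all 11025 genes. These values rest on passages that hold 1 library of each number: with any 1 of the 4 libraries left out, between 73 and 109 genes in place of 3 passed 1.5-fold between passages, Mal among them without the first library of either passage.

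The recovered reads gave a second, finer comparison of single libraries. A gene was counted as beyond counting error where the exact 95% interval of the ratio of passage 39 to passage 9 lay on the same side of 1 for both the first and the second libraries. This held for none of the 6 genes and for 0.444% of all genes tested. For Mog the ratio was 1.09 (95% interval 0.983 to 1.21) in the first libraries and 1.08 (0.964 to 1.21) in the second. Gpm6b was the exception on one side: its ratio was 1.03 (1.02 to 1.05) in the second libraries, but 1.01 (0.993 to 1.02) in the first. For Pllp the ratios were 0.769 (0.253 to 2.17) and 0.569 (0.167 to 1.79), so that differences of about 2-fold were not detectable at its read numbers. These intervals compare libraries and cover counting error only.

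Between the 2 libraries of a passage, on the other hand, all 6 genes differed. Each was lower in the second library of both passages beyond counting error, which held for 21.6% of all genes tested. The opposite direction, higher in the second library of both passages, held for 41.6% of all genes and for none of the 6. By size, 3 of the 6 genes (Mal, Mbp and Gpm6b) were at least 1.5-fold lower in the second libraries, against 3.15% of all genes tested, and none was 1.5-fold higher, against 2.88%. The 6 genes are those that passed the minimum level out of 9, and their counts describe them only.

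Mal differed the most. Its mean was 44.1 RPKM over the first and 18.4 RPKM over the second libraries, a 2.39-fold difference, and its log2 difference of -1.22 was number 44 from the lowest among 11025 genes. The ratio of the second to the first library was 0.427 (95% interval 0.402 to 0.453) in passage 9 and 0.409 (0.385 to 0.433) in passage 39.

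Mbp was 1.71-fold lower in the second libraries, with ratios of 0.583 (0.566 to 0.601) and 0.584 (0.567 to 0.602). Its log2 difference was -0.76. Gpm6b was 1.52-fold lower, with ratios of 0.649 (0.639 to 0.659) and 0.665 (0.655 to 0.676). Gpm6b was close to the 1.5-fold threshold and fell short of it without the second library of passage 9, at a log2 difference of -0.58 in place of -0.60.

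Cnp, Mag and Mog were lower by smaller amounts. The ratio was 0.750 (0.736 to 0.765) and 0.745 (0.731 to 0.759) for Cnp in passage 9 and passage 39. It was 0.771 (0.747 to 0.796) and 0.769 (0.745 to 0.793) for Mag, and 0.814 (0.727 to 0.910) and 0.807 (0.725 to 0.899) for Mog. For each of the 6 genes other than Gpm6b, whose intervals also overlapped, the ratios of the 2 passages were within each other's 95% interval. Pllp gave 0.965 (0.353 to 2.56) and 0.714 (0.198 to 2.48), which is too wide to place it with or apart from Mal.

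**Figure D2:**
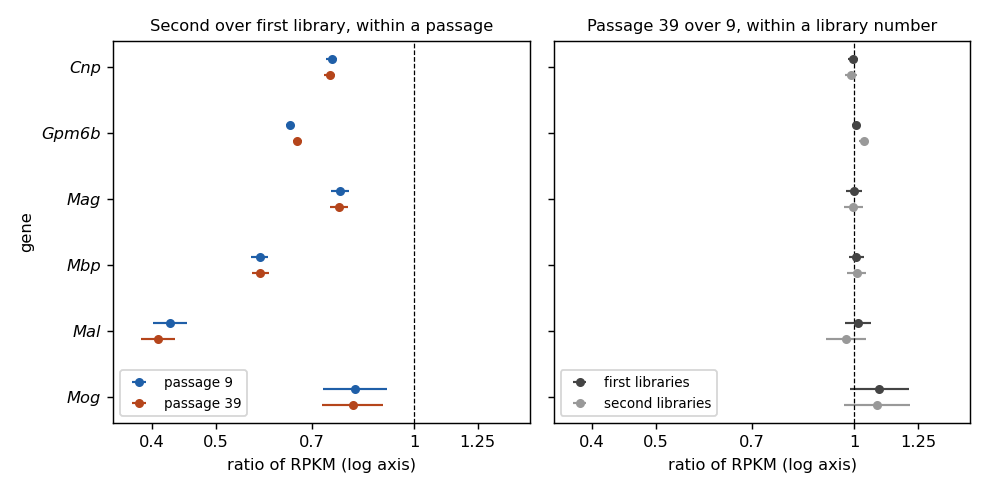
Ratio of RPKM (horizontal log axis) for the 6 myelin genes tested, with exact 95% counting intervals, for the second over the first library within each passage (left) and for passage 39 over passage 9 within each library number (right). On the left all ratios lie between 0.409 and 0.814, and on the right between 0.970 and 1.09 around the dashed line at 1.

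The genes therefore did not shift by 1 common factor. Relative to Cnp in the same library, Mag was steady at 0.280, 0.288, 0.281 and 0.290, in the order first and second library of passage 9 and then of passage 39. Mal was at 0.156, 0.0888, 0.159 and 0.0872 of Cnp, and Mbp at 0.180, 0.140, 0.182 and 0.143. Gpm6b was at 0.752, 0.650, 0.761 and 0.679 of Cnp. Mog was at 0.0301, 0.0326, 0.0330 and 0.0357 of Cnp.

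Scaling and gene length moved with this difference. The median log2 difference of all 11025 genes was 0.10 as deposited, and relative to it the 6 genes were between -1.32 and -0.37. As deposited, 52.3% of the genes past 1.5-fold were lower in the second libraries, which became 79.6% after the libraries were rescaled to a common sum and 71.1% after median-ratio scaling. All 6 genes were lower in the second libraries under each of these scalings. Across the 11024 genes tested that had a recovered length, the difference fell with length (Spearman rho of -0.42, a description across genes of the same 4 libraries). Relative to the median of genes about as long as itself, Mal was at -1.37, Mbp at -0.71, Gpm6b at -0.62, Cnp at -0.55, Mag at -0.49 and Mog at -0.42.

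**Figure D3:**
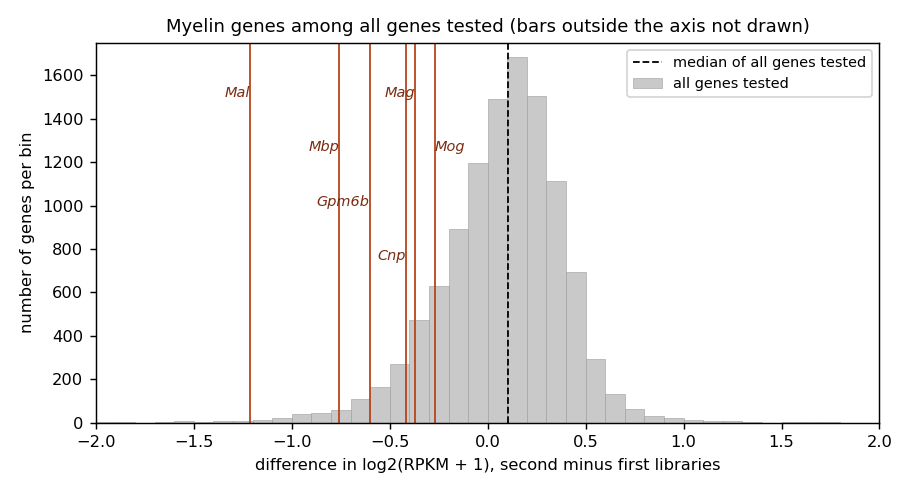
Number of genes (vertical axis) by difference in log2(RPKM + 1) between the means of the second and the first libraries (horizontal axis), for the 11025 genes tested, 13 of which lie outside the axis. The 6 myelin genes, drawn as lines from Mal at -1.22 to Mog at -0.27, all lie to the left of the dashed median of 0.10.

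Other genes of myelinating Schwann cells were looked up from a list of 22. All 22 were above 0 in at least 1 library, and 16 had a mean of at least 1 RPKM. The others were Gjc3 at 0.875, Drp2 at 0.440, Nfasc at 0.164, Gjb1 at 0.113, Ncmap at 0.0728 and Tspan2 at 0.0313 RPKM. Counts past 1.5-fold are all set by log2(RPKM + 1). By it 7 of the 16 were at least 1.5-fold lower in the second libraries, against 3.15% of all genes tested. None was at least 1.5-fold higher, against 2.88%. The median log2 difference of the 16 was -0.50, beside -0.51 for the 6 myelin sheath genes and 0.10 for all genes. The list was chosen with earlier results of these data known. The most abundant were near a ratio of 1 between second and first libraries: it was 1.06 for Pmp22, a protein of compact peripheral myelin with a mean of 1255 RPKM, 1.03 for Cd9, and 0.988 for Cadm4, which was not beyond counting error. Among the 16, the largest differences were those of Pmp2, Fa2h and Enpp2 (autotaxin). Pmp2, a fatty acid binding protein of myelin, was 7.70-fold lower. Fa2h, which hydroxylates the fatty acids of myelin lipids, was 2.58-fold lower, and Enpp2 was 2.08-fold lower. Genes below a mean of 1 RPKM were left out of this order. The folds given for single genes are plain ratios of mean RPKM. On these, Cldn19 of the 16 would be past 1.5-fold as well, at 1.56-fold lower.

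The transcription factors that act on myelin genes did not move as one. Of 12 listed, 11 had a mean of at least 1 RPKM, 1 was at least 1.5-fold lower and 1 at least 1.5-fold higher, and their median log2 difference was 0.02. Egr2, which drives the myelination programme, was at 5.90 and 10.5 RPKM in the libraries of passage 9 and at 6.21 and 11.0 RPKM in those of passage 39. It was thus high in the libraries in which the 6 myelin sheath genes were low. Myrf, known as the regulator of myelin genes in oligodendrocytes, was at 61.5 and 40.3 RPKM in passage 9 and at 61.6 and 39.7 RPKM in passage 39, in the same direction as Mbp. Sox10 had a ratio of second to first libraries of 1.04, and Tead1 of 0.792.

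Among 14 MARVEL domain relatives of Mal and Pllp, 9 had a mean of at least 1 RPKM, of which 2 were at least 1.5-fold lower and 1 at least 1.5-fold higher on the log2(RPKM + 1) scale. By the plain ratio Cmtm8 was also past it, at 1.57-fold higher with a mean of 1.14 RPKM, but not beyond counting error. Plp2 was the most abundant, with a mean of 231 RPKM and a ratio of 1.40. Cmtm5, with a mean of 102 RPKM, was 1.61-fold lower and Cmtm4 was 1.80-fold lower in the second libraries. Myadm was 6.36-fold higher, at 11.8 and 76.9 RPKM in passage 9 and 12.7 and 78.9 RPKM in passage 39. Mal2 and Mall, the closest relatives of Mal by name, each had means below 0.01 RPKM. Of 9 genes for the transport and translation of Mbp mRNA, all had a mean of at least 1 RPKM and none differed by 1.5-fold on the log2(RPKM + 1) scale. By the plain ratio Tppp, at a mean of 1.53 RPKM, was 1.86-fold lower in the second libraries, beyond counting error. Hnrnpa2b1, which binds the transport signal of Mbp mRNA, had a mean of 232 RPKM and a ratio of 1.01, Hnrnpf a ratio of 0.998 and Ckap5 a ratio of 0.760.

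**Figure D4:**
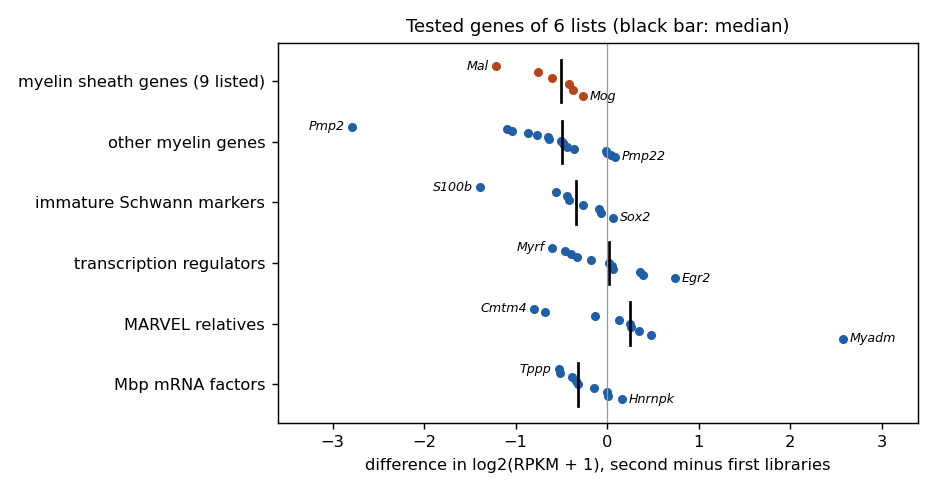
Difference in log2(RPKM + 1) between the second and the first libraries (horizontal axis) for the genes of 6 lists (vertical axis) that were tested, each point 1 gene and each black bar the median. The medians are -0.51 for the myelin sheath genes, -0.50 for the other myelin genes, -0.34 for immature Schwann cell markers, 0.02 for transcription regulators, 0.25 for MARVEL relatives and -0.32 for Mbp mRNA factors.

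Markers of cell states and of other cell types were summed in each library. The 9 markers of immature Schwann cells summed to 744 and 743 RPKM in the first and to 608 and 597 RPKM in the second libraries, with S100b, a calcium binding protein of Schwann cells, 2.67-fold lower and Gap43 listed at 0. The 10 neuron markers summed to 1.12 and 0.831 RPKM in the first and 1.97 and 1.91 RPKM in the second libraries, nearly all of it Syp, and Syt1, Stmn2, Elavl4 and Gap43 were listed at 0. The 6 astrocyte markers summed to between 10.6 and 15.1 RPKM, most of it Gfap, and Aqp4 was listed at 0. The 6 fibroblast markers summed to between 3432 and 3934 RPKM, nearly all of it Col1a1, while Dcn had a mean of 0.00330 RPKM and Col3a1 was at 82.8 and 50.3 RPKM in passage 9 and at 81.9 and 48.5 RPKM in passage 39. Of 6 macrophage markers 5 were listed, with Ptprc and Itgam at 0 and a sum of at most 1.62 RPKM. The 5 endothelial markers summed to at most 0.798 RPKM, with Cdh5 and Kdr at 0. The part of these differences in those of the myelin genes was not tested.

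The genes closest to each of the 6 in their pattern over the 4 libraries were taken as the 2 with the smallest Euclidean distance of centred log2(RPKM + 1), among the 5861 other genes (5862 for Mog) whose mean reached 10 RPKM. For Mbp, Aspm was at a distance of 0.027, and for Mag they were Cenpt (0.0010) and Eps15 (0.0039). For Mal they were Kctd12 (0.055) and Sema3g (0.068), and for Cnp they were Ncam1 (0.0038) and E2f7 (0.0051). For Gpm6b they were Myo10 and Ncaph (0.016 each), and for Mog they were Cdc7 (0.036) and LOC102549924 (0.046). With 4 libraries that fall into pairs, such a distance mostly reads the size of the difference between library numbers. The distances were largest for Mal and Mog.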

How the data were processed

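RNA from 2 populations of unmodified S16 cells (passage 9 and passage 39) was sequenced from poly(A) TruSeq libraries. Values were given for 2 libraries of each population, 4 in all. The methods state that technical replicates were pooled for sequencing over 2 lanes. Whether the 4 libraries were prepared separately is not stated. Per the methods and the submitters' processing notes, single-end reads of 50 bases were checked with FastQC, aligned to rn5 with STAR keeping uniquely mapped reads, and counted per gene with HTSeq without strand. The authors deposited 1 RPKM value per gene symbol and library, and these RPKM files hold no column of gene lengths or library totals. The methods state an approximate read number per cell line that is below the totals recovered here for single libraries, and the reason was not tested. File names point to RefSeq gene models and the methods to Ensembl.

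Library totals, gene lengths and whole reads were recovered here from ratios of the RPKM values, which gave whole reads for 18057 of the 18114 genes with a value in 2 or more libraries. Reads and lengths were taken as the lowest integers that give the values (relative tolerance 2e-14; lengths within 0.001 of a whole number), so a common factor may remain hidden. The recovery was tested on data simulated from these recovered totals, lengths and reads. Such data check the calculation, but cannot show that the totals of the real libraries are right. The reads were used only for counting intervals and the chi-square, not for a count test. Intervals are exact Clopper-Pearson intervals at 95%, out of the library total for a level and conditional on the sum for a ratio. As PCR copies were not told apart from molecules, they hold for counting error alone. The floor of a gene listed at 0 is the RPKM of 3 reads in that library.

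Means of RPKM were taken over both libraries of a passage or, for the other grouping, over the 2 libraries of a number, and compared as log2(RPKM + 1), which understates differences of low genes. The 11025 genes whose mean reached 1 RPKM were compared, and 1.5-fold was the threshold. No p-values were computed, since each passage is 1 population. The work was done in Python 3.11.15 with scipy 1.17.1, pandas 2.3.3, numpy 2.4.6 and matplotlib 3.10.9. Alternatives were 2 other scalings, a pseudocount of 0.1 RPKM, other minimums and thresholds, replicate blocks, genes of similar length (20 bins) and each library left out.

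Named were the 9 members, from each gene list at most 6 genes (the 3 most abundant and up to 3 past 1.5-fold), and the 2 nearest genes by pattern, of which 1 for Mbp is not reported here. The members and lists were chosen with earlier results of these data known, and the sequence windows and pentamers after the values were seen. Markers at 0 and a few genes set beside a member (S100b, Erbb3, Mal2, Mall, Zfp57, Cldn19, Cmtm8, Tppp and Rtn4rl1) were also named after their values were seen. So were the low genes of the list of other myelin genes (Gjc3, Drp2, Nfasc, Gjb1, Ncmap and Tspan2). RefSeq windows were found for 7 of the 9 genes.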

Additional observations from a re-analysis of the deposited data

How the results depend on the processing

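The 6 members that were tested remained lower in the second libraries under each alternative, with 54 of 54 values in that direction. Of the 48 values for passages, 35 had the direction of the reported one and none that had been called reversed. The count of members past 1.5-fold between library numbers (3) became 5 at a threshold below 1.5-fold and 1 at 2-fold. Their median log2 difference (-0.51) became -0.66 with libraries rescaled to a common sum, -0.60 with median-ratio scaling, -0.37 with no filter, when all 9 members enter, and -0.59 when set against genes of like length. The count of all genes between library numbers (664) became 1046 with a pseudocount of 0.1 RPKM, 3243 at the lower threshold and 120 at 2-fold. Between passages the count of all genes (3) became 6 with a common sum, 8 with the smaller pseudocount, 0 where genes had to reach 5 RPKM, 5 with no filter, 13 at the lower threshold and 1 at 2-fold. With each library left out in turn it lay between 73 and 109, the count of members between 0 and 1 (Mal) and the members' median between -0.27 and 0.31, since the passages then held unequal numbers of first and second libraries. With the library number as a replicate block the count between passages was 3, with 0 members and a median of 0.0028, and with a block by passage the count between library numbers was 668, with 3 members. The blocks changed neither count of members. Same-numbered libraries of different passages deviated together (chi-square of 1.12 and 1.36 per gene), but the number marks no shared culture in the labels. With 1 population per passage, no difference between passages could be tested against the spread between cultures. Pllp, Mobp and Gpm6a had too few reads for differences of about 2-fold to be seen.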

Other observations

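The receptors and relatives of Mag were present to very different degrees. Mag is a ligand of the Nogo receptor on neurons. Of 8 genes for the receptor's subunits, relatives and other ligands, 5 had a mean of at least 1 RPKM. Ngfr, the low-affinity neurotrophin receptor, was at 283 RPKM, and Rtn4, which encodes Nogo, was at 43.9 RPKM with a ratio of second to first libraries of 1.00. Tnfrsf19 (TROY) was at 11.1 and 3.21 RPKM in passage 9 and at 10.5 and 3.04 RPKM in passage 39, which made it 3.46-fold lower in the second libraries. It alone of the 5 was past 1.5-fold on the log2(RPKM + 1) scale, while by the plain ratio Rtn4rl1, at a mean of 1.36 RPKM, was also past it, at 1.77-fold higher. Lingo1 and Omg had means of 0.0365 and 0.0501 RPKM.

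Mag belongs to the sialic acid binding Siglec family, and none of 7 relatives had a mean of 1 RPKM. Siglec10 was the highest at 0.434 RPKM, followed by Siglec8 at 0.0250 and Cd22 at 0.00757 RPKM, while Siglec5 and Siglec15 were listed at 0 in every library. At 69.4 RPKM, Mag thus made up nearly all of the listed RPKM of the 8 genes.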
